A study of Mus musculus with 9 samples.

Results

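The metallothioneins Mt1, Mt2 and Mt3 were examined in layer IV of the mouse barrel cortex, the somatosensory area in which whisker inputs form a map of neuron clusters. The members were all probe sets, the groups of short probes that together give 1 signal, whose annotated gene symbol was Mt1, Mt2 or Mt3. Whether a probe set also reads other transcripts was not checked. The 3 genes, of 12393 named on the array, had 4 of the 22626 probe sets that were not controls, 2 for Mt1, 1 for Mt2 and 1 for Mt3. The symbols alone decided membership, but the genes were picked with their signals on these arrays already known, so that every level and change below is a description first. The tissue was laser microdissected at postnatal day 5 from C57BL/6 mice that were knockout (KO), heterozygous (HZ) or wild type (WT) for Gap43, the gene of a growth cone phosphoprotein, with 3 mice and 3 Affymetrix arrays per genotype. The labels do not say which part of Gap43 the KO lacks, nor do they name another treatment or allele. Values are the authors' scaled linear signals, and the number of arrays limits their precision.

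Metallothioneins are small cysteine-rich proteins that bind zinc and copper, buffer the free metal in the cell and can scavenge reactive oxygen. Mt1 and Mt2 are inducible in most tissues by zinc, glucocorticoids, cytokines and oxidative stress, and in brain they are mainly astrocytic. Their metal response runs through the transcription factor MTF-1, which binds metal response elements in their promoters. Mt3, also called growth inhibitory factor, is the brain form and is little induced by metals, whereas Mt4 belongs to stratified epithelia. In the RefSeq table of assembly GRCm38.p6 the 4 genes lie side by side on chromosome 8 in the order Mt4, Mt3, Mt2, Mt1, with 0 other protein-coding genes between neighbours of the cluster.

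The bases upstream of the 3 genes are shown because Mt1 and Mt2 are known MTF-1 targets, and because Mt3 differs from them in its response to metal. Each sequence holds the 250 bases before the gene's start in RefSeq (GRCm38.p6, plus strand, at chr8:94178839-94179088 for Mt1, chr8:94172368-94172617 for Mt2 and chr8:94152357-94152606 for Mt3), 5′ to 3′. Capitals mark matches, on either strand, to the metal response core TGCACNC or TGCGCNC or to the antioxidant response core TGACNNNGC.
Mt1: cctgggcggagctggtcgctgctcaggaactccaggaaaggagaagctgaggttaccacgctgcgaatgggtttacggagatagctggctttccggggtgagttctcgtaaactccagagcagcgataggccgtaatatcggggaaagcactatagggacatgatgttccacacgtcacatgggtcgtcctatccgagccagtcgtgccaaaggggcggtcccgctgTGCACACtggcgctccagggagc
Mt2: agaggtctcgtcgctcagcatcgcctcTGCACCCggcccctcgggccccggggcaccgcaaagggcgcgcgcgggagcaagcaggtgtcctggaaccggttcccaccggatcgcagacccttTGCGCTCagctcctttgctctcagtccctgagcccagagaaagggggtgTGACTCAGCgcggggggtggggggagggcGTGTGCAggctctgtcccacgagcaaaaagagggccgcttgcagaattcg
Mt3: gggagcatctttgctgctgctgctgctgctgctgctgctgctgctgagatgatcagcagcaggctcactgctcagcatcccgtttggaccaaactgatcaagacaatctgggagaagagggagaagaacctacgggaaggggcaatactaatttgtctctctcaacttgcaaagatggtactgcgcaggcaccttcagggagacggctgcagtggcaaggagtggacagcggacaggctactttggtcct

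The Mt2 window held 3 metal response cores and 1 antioxidant core, the Mt1 window 1 metal response core and the Mt3 window 0 of either kind. None of these matches overlapped another. Of 32841 RefSeq promoter windows of the same length, 10.4% held TGCACNC, 12.5% held TGCGCNC and 10.2% held TGACNNNGC. At least 1 metal response core was present in 21.4% of windows and 3 or more in 1.26%. A match is a string of letters in 1 annotated window and was not tested as a binding site, and bases outside the windows were not searched. The Mt1 window in particular may not be the proximal promoter, since the annotated start may lie upstream of the start commonly used, so its count holds for these letters only and is not compared with that of Mt2.

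Gap43 itself, read by 1 probe set, gave 979, 1930 and 1299 in KO, 5015, 5039 and 4389 in HZ and 7089, 4746 and 4294 in WT, so that each KO array lay below each HZ and WT array. Of the 13576 probe sets tested, the brightest 60%, a limma adjusted p below 0.05 was reached by 0.00737% in KO against WT, by 0% in HZ against WT and by 0.00737% in KO against HZ, which in the KO comparisons was Gap43. Array pairs correlated at r of 0.949 to 0.978 across these probe sets. The signal ratio of 3′ to 5′ control probe sets for Gapdh was 27.9 on HZ 2. On the other 8 arrays it lay between 11.5 and 19.5, with WT 2 the highest of these.

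Metallothionein signal did not pass the test in any comparison. Of the 4 probe sets 2 were bright enough to be tested, and 0 of 2 passed in each of KO against WT, HZ against WT and KO against HZ (limma, Benjamini-Hochberg over 13576 probe sets). At an unadjusted p below 0.05 there was 1 of the 2, Mt2, in HZ against WT, and 0 of 2 in the comparisons of KO with WT and with HZ. Of all tested probe sets 6.22% in HZ against WT, 8.03% in KO against WT and 7.73% in KO against HZ had such a p. Arrays of 2 genotypes were fully apart for 0 of the 4 probe sets in each comparison. Among all tested probe sets the arrays were apart for 13.7% in KO against WT (7.83% higher and 5.83% lower in KO). In HZ against WT the share was 12.9% (8.51% higher and 4.39% lower in HZ), and in KO against HZ it was 14% (6.67% higher and 7.35% lower in KO).

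Mt1, the metal- and hormone-inducible form, was read by a bright probe set and a dim one, at the 74.8th and 18.8th percentile of mean log2 signal among the 22626. The bright one gave 665, 499 and 386 in KO, 358, 666 and 634 in HZ and 323, 886 and 433 in WT. The highest and the lowest of all 9 signals were both in WT mice, WT 2 and WT 1, and the KO and HZ values lay between them. Mean signals were 517 ± 140 in KO, 552 ± 170 in HZ and 547 ± 298 in WT (SD, n = 3 each).

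On the log2(signal + 16) scale, on which all changes here are given and which understates changes of dim probe sets, Mt1 differed by 0.01 ± 0.34 for KO against WT (SE, 95% interval -0.71 to 0.74, limma adjusted p = 0.994). The KO mean was below the WT mean on the linear scale, so that the direction depends on the scale. HZ against WT gave 0.09 (-0.64 to 0.82, limma adjusted p = 0.963) and KO against HZ -0.08 (-0.80 to 0.65, limma adjusted p = 0.972). These intervals leave room for changes of more than 1.5-fold either way in each comparison.

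The dim Mt1 probe set fell below the brightness limit and was not tested with the others. Its signals were 41.4, 19.7 and 67.1 in KO, 22.8, 19.5 and 59.3 in HZ and 34.5, 109 and 43.7 in WT. WT 2 was again the highest array. Its log2 changes were -0.38 in KO and -0.62 in HZ relative to WT and 0.24 in KO relative to HZ, each of the opposite sign to that of the bright probe set. Single arrays decided 2 of these signs, since KO relative to WT was at 0.01 without WT 2 (and -0.07 without KO 2) and KO relative to HZ at -0.05 without KO 3, and HZ relative to WT was at -0.23 without WT 2. In a fit without the brightness limit (22626 probe sets) its limma adjusted p was 0.879, 0.835 and 0.940.

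Mt2, the neighbour of Mt1 and likewise inducible, was read by 1 probe set at the 84.4th percentile. It gave 1073, 1214 and 617 in KO, 645, 655 and 892 in HZ and 751, 1970 and 1237 in WT. WT 2 had the highest signal here as well, and KO 3 the lowest. All 3 HZ arrays lay in the lower range, though HZ 3 was above WT 1, so the groups overlapped. Means were 968 ± 312 in KO, 730 ± 140 in HZ and 1319 ± 614 in WT (SD, n = 3 each).

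Mt2 in HZ against WT had a log2 change of -0.75 ± 0.32 (SE, 95% interval -1.43 to -0.07), or 1.68-fold lower, with an unadjusted p of 0.0342 in the limma fit that ranked 573 of 13576. The limma adjusted p was 0.789. KO against WT gave -0.39 ± 0.32 (-1.07 to 0.29, limma adjusted p = 0.793). Without WT 2 the log2 change was -0.41 for HZ against WT (limma adjusted p = 0.680) and -0.05 for KO against WT (0.967), so that both values moved by more than 1.5 times with 1 WT mouse. KO against WT stood at -0.10 without KO 3 (0.953). KO against HZ gave 0.36 ± 0.32 (-0.32 to 1.04, limma adjusted p = 0.845), 0.65 without KO 3 and 0.17 without KO 2.

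**Figure D1:**
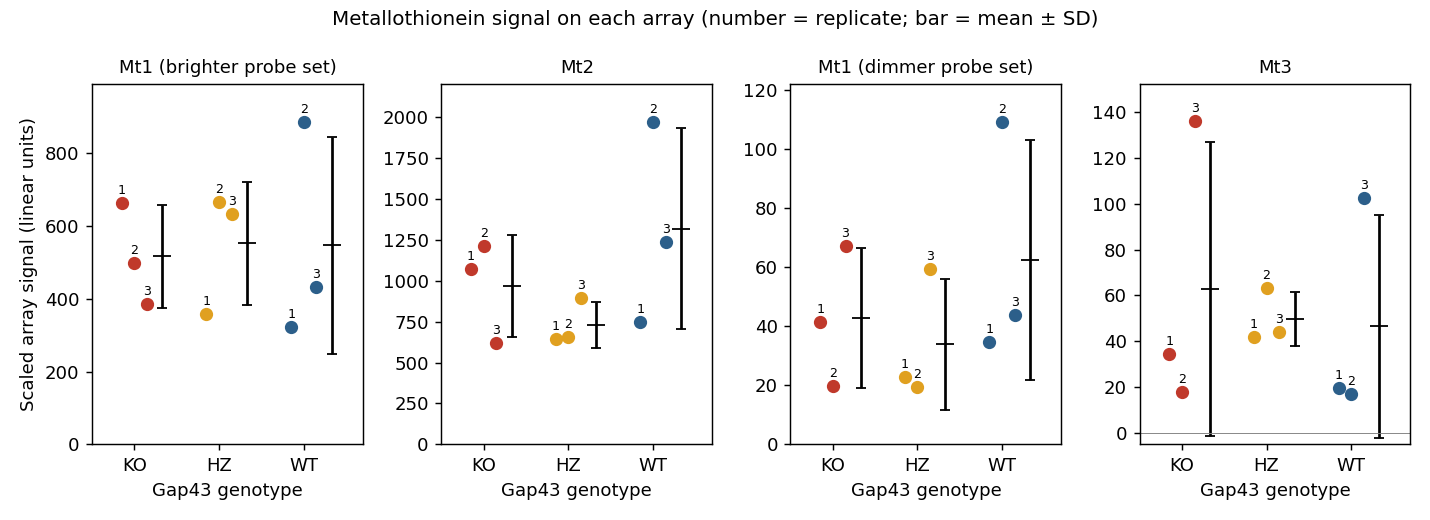
Scaled linear signal of the 4 metallothionein probe sets on each array, with KO, HZ and WT from left to right, replicate numbers above the points and bars for the mean ± SD (n = 3). WT 2 is the highest array for both Mt1 probe sets (886 and 109) and for Mt2 (1970), whereas KO 3 is the highest for Mt3 (136).

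Mt3, the brain form, was read by 1 probe set, which lay at the 19.8th percentile of brightness and was not tested in the main fit. Its signals were 34.3, 17.9 and 136 in KO, 41.7, 63.4 and 44.1 in HZ and 19.7, 17.1 and 103 in WT. One array each of KO and WT, KO 3 and WT 3, stood above 100 and the other KO and WT arrays below 35, so the groups overlapped. Means were 62.8 ± 64.1 in KO, 49.7 ± 11.9 in HZ and 46.5 ± 48.6 in WT (SD, n = 3 each).

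The log2 changes of Mt3 were 0.30 in KO and 0.32 in HZ relative to WT, and -0.03 in KO relative to HZ. In the fit without the brightness limit each had an SE of 0.58 (limma adjusted p = 0.930, 0.924 and 0.994). Without KO 3 the KO against WT change turned to -0.33, and without WT 3 it was 0.89. At this brightness no difference in Mt3 was detectable, and the low signal of 1 probe set does not show that the gene was off, since brightness also depends on the probes. Mt4, the epithelial form and no member of the set, was similarly dim, with means of 48.1 ± 17.3 in KO, 43.8 ± 15.9 in HZ and 45.9 ± 24.2 in WT (SD, n = 3 each), and WT 2 was its highest array.

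**Figure D2:**
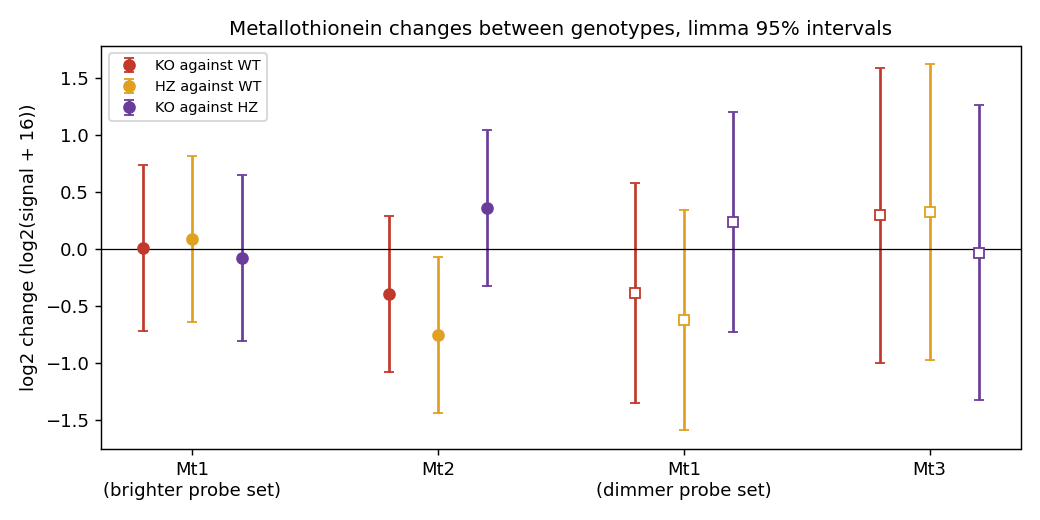
Log2 changes with limma 95% intervals in the 3 comparisons of genotypes. Filled circles are probe sets tested in the main fit of 13576 and open squares are dim ones from the fit of 22626. Of the 12 intervals, that of Mt2 in HZ against WT (-1.43 to -0.07) does not reach 0, before any adjustment.

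Arrays of the same genotype differed in Mt1 and Mt2 more than they did for most transcripts. With 1 array per mouse, differences between mice cannot be told apart from those of dissection, amplification and array. The SD within genotypes was 0.55 for Mt1 and 0.52 for Mt2 on the log2 scale, against a median of 0.23 over all tested probe sets. These were at the 96.8th and 95.9th percentile of all tested probe sets, and at the 97.7th and 97.8th percentile of the 1358 probe sets of similar brightness. Within WT, the highest Mt1 signal was 2.74 times the lowest and the highest Mt2 signal 2.62 times the lowest. Within KO these ratios were 1.72 and 1.97, and within HZ 1.86 and 1.38.

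**Figure D3:**
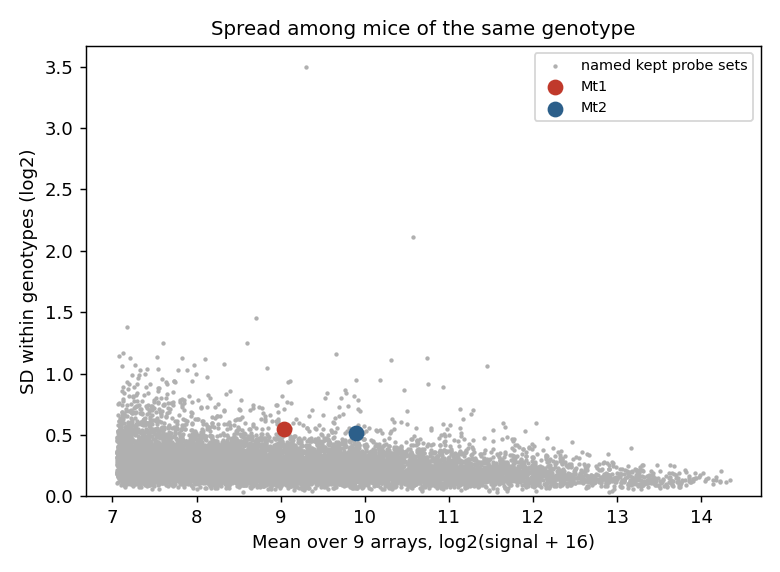
Within-genotype SD (log2) against mean log2(signal + 16) for each tested probe set with a gene symbol (grey), with Mt1 in red and Mt2 in blue. Both lie near the upper edge of the cloud at their brightness, at 0.55 and 0.52.

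The correlation of Mt1 and Mt2 signals across the 9 arrays was positive but did not pass. Pearson r was 0.60 (exact permutation p = 0.0848, adjusted p = 0.254 over 3 pairs of members) and Spearman rho 0.50 (exact permutation p = 0.178, adjusted p = 0.266). With each genotype's mean removed, r was 0.81 (permutation p = 0.0093, adjusted p = 0.0279) and rho 0.78 (permutation p = 0.0172, adjusted p = 0.0517). The permutation treats the centred values as exchangeable, which removing 3 means makes only approximate. Without WT 1 and WT 2, the arrays farthest from the median of Mt1, r was 0.25 (exact permutation p = 0.564, n = 7) for the values as they stand and 0.56 (permutation p = 0.186, adjusted p = 0.279, n = 7) for the centred ones, a removal added after seeing the data. Neither passed on those 7 arrays, and leaving out the extremes of Mt1 also narrows its range. The HZ arrays lay lower in Mt2 at a given Mt1 than the WT arrays did. Mt3 gave an r of -0.28 with Mt1 (exact permutation p = 0.464, adjusted p = 0.464) and of -0.46 with Mt2 (exact permutation p = 0.211, adjusted p = 0.317). Spearman's rho was -0.23 and -0.53 (exact permutation p = 0.552 and 0.148, adjusted p = 0.552 and 0.266), and without the 2 arrays farthest from the median of the first gene r was -0.38 and 0.04.

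**Figure D4:**
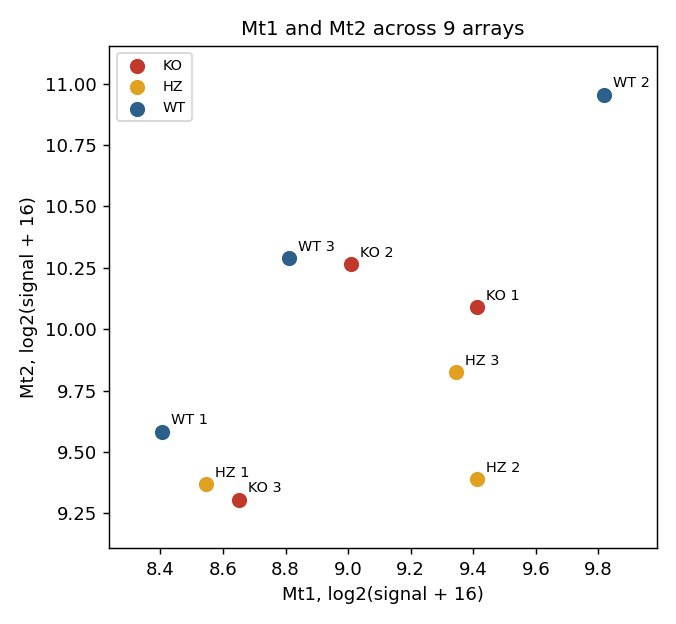
Mt2 against Mt1, both as log2(signal + 16), for the 9 arrays, coloured by genotype. WT 2 stands at the upper right, and HZ 1, KO 3 and WT 1 are at the lower left (r = 0.60).

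Over 9 arrays the genes most like Mt1 in pattern, of 8502 compared by their brightest probe set, were Cntd1 (r = 0.96), Wdr81 (0.96), 2310061I04Rik (0.95), Cndp2, a dipeptidase (0.95), and Pdlim7 (0.94). The least alike were Ppp2cb, a catalytic subunit of protein phosphatase PP2A (-0.97), and Rdh11 (-0.96). For Mt2 the most alike were Pcnx (0.96), Slc25a20, the mitochondrial carnitine carrier (0.91), Tmem191c (0.90), Rps15 (0.88) and Dtymk (0.88), and the least alike Scnn1b (-0.96) and AI597479 (-0.95). For Mt3 they were Taok3 (0.92), Sh3d19 (0.87), Hoga1 (0.86), Mdk, the growth factor midkine (0.86), and Apip (0.85), with Cabyr (-0.97) and Surf2 (-0.90) at the other end. For the dim Mt1 probe set they were Naxd (0.93), Tmem141 (0.93), Rufy1 (0.91), Kctd5 (0.90) and Ethe1 (0.90), with Adgrl1 and Dll1 at -0.93. No gene stood on the list of more than 1 member. These are the extremes of 8502 or 8503 correlations over arrays that share their scaling and are given as a description only.

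Genes that handle metals or carry the signals known to induce metallothioneins were followed in 6 lists, of which 86 of 111 genes were tested. Across the lists 0 genes passed in any comparison (limma). At an unadjusted p below 0.05 there were 8 genes (9.30%) in KO against WT, 3 (3.49%) in HZ against WT and 4 (4.65%) in KO against HZ, against 8.03%, 6.22% and 7.73% of all tested probe sets. Genotypes did not overlap for 12 genes (14.0%), 5 (5.81%) and 8 (9.30%), close to or below the 13.7%, 12.9% and 14% of all probe sets. By direction these were 2 higher and 10 lower, 2 higher and 3 lower, and 0 higher and 8 lower. Among all tested probe sets the shares apart and higher were 7.83%, 8.51% and 6.67%, and the shares apart and lower 5.83%, 4.39% and 7.35%. Of the 86 genes 34 were higher and 52 lower in KO against WT, where 53.7% of all tested probe sets were higher.

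Zinc handling gave 18 tested genes of 23. In KO against WT 8 were higher and 10 lower, with a median log2 change of -0.01 beside 0.02 over all tested probe sets. In HZ against WT 9 were higher and 9 lower. Mtf1, the metal sensor of the Mt1 and Mt2 promoters, gave 252, 303 and 194 in KO, 263, 202 and 263 in HZ and 224, 372 and 172 in WT, with log2 changes of 0.01 for KO against WT and -0.02 for HZ against WT. A second Mtf1 probe set gave 0.18 and -0.31. Slc30a1, the zinc exporter ZnT1 and like the metallothioneins a target of MTF-1, gave 165, 74.4 and 129 in KO, 261, 126 and 209 in HZ and 223, 170 and 265 in WT.

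All 3 KO arrays of Slc30a1 lay below the 3 WT arrays, as did 5.83% of all tested probe sets, and the log2 change was -0.80 ± 0.30 (SE, limma adjusted p = 0.537). Slc30a5, a zinc transporter of the early secretory pathway, had a log2 change of -0.51 in KO against WT (limma adjusted p = 0.584) with overlapping arrays. Slc30a3, which loads zinc into synaptic vesicles, averaged 570 in KO, 591 in HZ and 495 in WT, with log2 changes of 0.19 for KO against WT and 0.25 for HZ against WT (limma adjusted p = 0.814 and 0.810).

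Of 15 tested copper and iron genes 5 were higher and 10 lower in KO against WT (median -0.07), and 8 higher and 7 lower in HZ against WT (median 0.04). The leading members were Slc40a1, the iron exporter ferroportin, at -0.37 in KO against WT (limma adjusted p = 0.638) and -0.66 on its second probe set, and Tfrc, the transferrin receptor, at -0.26 (0.690). In KO against HZ Tfrc stood at -0.37 (0.577). Atp7b, a copper ATPase, was at 0.42 in HZ against WT (limma adjusted p = 0.789). Of 20 tested glutathione and antioxidant genes 6 were higher and 14 lower in KO against WT (median -0.12), and 8 higher and 12 lower in HZ against WT (median -0.02). Gstm5, a glutathione transferase, and Gpx1, a glutathione peroxidase, were at -0.29 and -0.27 in KO against WT (limma adjusted p = 0.686 and 0.721). Keap1, the repressor of the antioxidant factor NRF2, was at 0.49 in HZ against WT (0.789), and Gclm, of glutathione synthesis, at -0.40 in KO against HZ (0.691).

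Of 14 tested glucocorticoid genes 8 were higher and 6 lower in KO against WT (median 0.02), and 7 higher and 7 lower in HZ against WT (median 0.04). Hsd11b1, the enzyme that regenerates active glucocorticoid, gave 312, 327 and 300 in KO, 857, 519 and 488 in HZ and 607, 719 and 671 in WT, so that each KO array lay below all others. The log2 change of KO was -1.05 ± 0.20 relative to WT and -0.91 ± 0.20 relative to HZ (SE, limma adjusted p = 0.298 and 0.263). Bcl6, a transcriptional repressor, was at -0.86 in KO against WT (0.390) with a second probe set at 0.03. Tsc22d3, the glucocorticoid-induced leucine zipper, was instead at 0.59 in KO and 0.41 in HZ against WT (limma adjusted p = 0.473 and 0.789), but its other probe sets gave 0.64 and -0.01 for KO against WT and -0.55 and -0.06 for HZ against WT. Nr3c1, the glucocorticoid receptor, averaged 390 in KO, 425 in HZ and 511 in WT (log2 changes of -0.35 and -0.24 against WT, limma adjusted p = 0.714 and 0.833). Neither direction was shared by all of these genes.

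Of 10 tested genes of gp130 and STAT3 signalling, the route by which interleukin-6 type cytokines act, 4 were higher and 6 lower in KO against WT (median -0.09), and likewise 4 and 6 in HZ against WT (median -0.04). Il6ra, a receptor of interleukin-6, was at 0.65 in KO and 0.62 in HZ against WT (limma adjusted p = 0.537 and 0.789), Il6st, the shared subunit gp130, at -0.41 in KO against WT (0.623), and Stat3 at -0.39 in KO against HZ (0.673). Of 9 tested hypoxia genes 3 were higher and 6 lower in KO against WT (median -0.14), and 6 higher and 3 lower in HZ against WT (median 0.01). Slc2a1, the glucose transporter GLUT1, was at -0.57 in KO against WT (limma adjusted p = 0.537), with other probe sets at -0.09 and -0.65. Ndrg1 was at 0.50 (0.541), with other probe sets at 0.08 and 0.64. Egln1, an oxygen-sensing hydroxylase, was at -0.21 in HZ against WT (0.803) and at 0.10 on its other probe set.

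**Figure D5:**
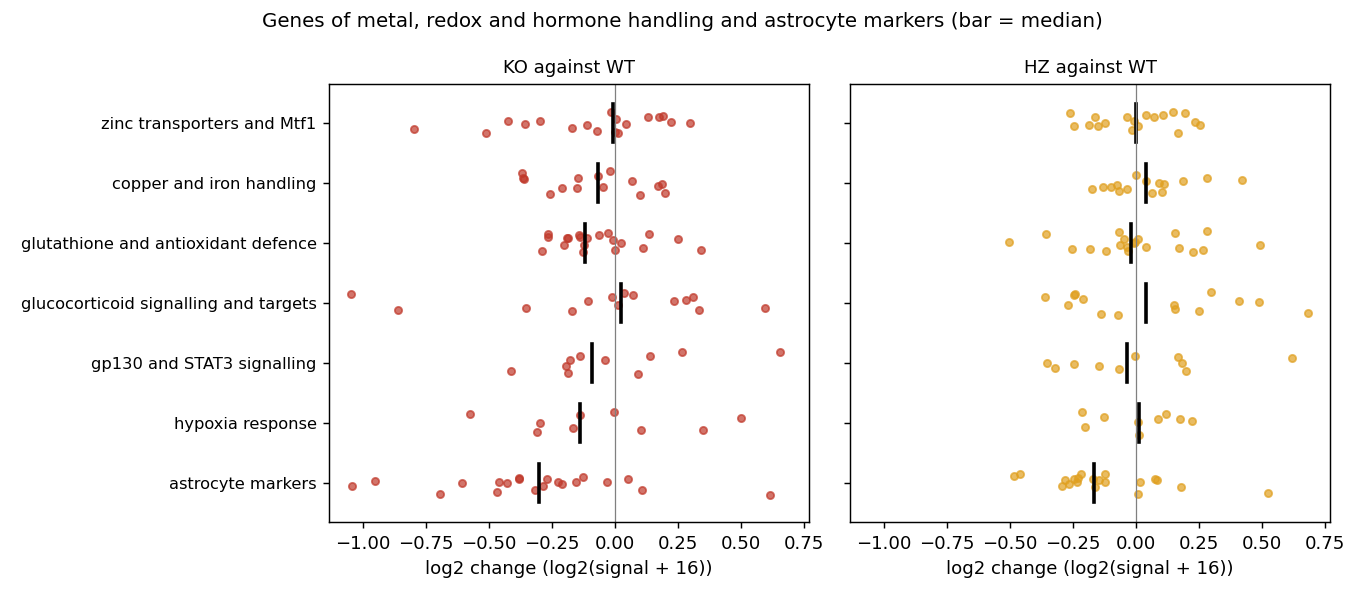
Log2 changes of each tested gene of the 6 lists and of the astrocyte markers for KO against WT (left) and HZ against WT (right), 1 dot a gene at its brightest probe set, with a bar at each median. The medians of the 6 lists lie between -0.14 and 0.04, and those of the astrocyte markers at -0.30 and -0.17.

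Astrocytes are the main cells known to make Mt1 and Mt2 in brain, and their markers, Mt genes left out, were set beside the metallothionein values. Of 25 markers 20 were tested, with 3 higher and 17 lower in KO against WT and 6 higher and 14 lower in HZ against WT. Of these 0 passed, with 9 (45%) and 2 (10%) at an unadjusted p below 0.05 (limma), beside 8.03% and 6.22% of all tested probe sets. By direction these were 1 higher and 8 lower in KO, and 0 higher and 2 lower in HZ. All KO arrays lay below all WT arrays for 7 of the 20 (35%), beside 5.83% of all, and all HZ arrays below all WT arrays for 4 (20%), beside 4.39%. Their summed signal ranged from 28248 to 37418.5 in KO, from 34427.5 to 35448 in HZ and from 34368 to 41927 in WT, and the dimmest marker averaged 121. Glul, the glutamine synthetase of astrocytes, was at -0.49 in HZ against WT (limma adjusted p = 0.789), with a second probe set at -0.25 (0.856). Gja1, connexin 43, was at -1.04 in KO against WT (limma adjusted p = 0.114), with other probe sets between -1.24 and -0.64. In tissue samples fewer cells of a type and less RNA per cell cannot be told apart, and the part of astrocytes in the Mt2 values was not tested.

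WT 2, the array highest in Mt1 and Mt2, also had the highest summed signal of microglia markers (6 of 16 tested), at 3454, where the KO range was 1312 to 1716, the HZ range 1617 to 2141 and the values of WT 1 and WT 3 were 1673 and 1566. WT 2 also had the highest summed signal of oligodendrocyte lineage markers (7 of 12 tested), at 7194. The KO range was 3626 to 5338, the HZ range 4995 to 6060 and the WT 1 and WT 3 values 5211 and 5054. In that sum Cnp alone gave 3087 on WT 2 and at most 1932 on any other array (HZ 2), whereas Olig2 was lowest on WT 2, at 137. Of the 7 oligodendrocyte lineage markers 5 were higher and 2 lower in KO against WT (median 0.11). Of the 6 microglia markers 0 were higher and 6 lower in KO against WT (median -0.38), and 1 higher and 5 lower in HZ against WT (median -0.04). Summed signals of 3 pathway lists were also highest on WT 2, with 20962 for the glucocorticoid genes (KO up to 17823, HZ up to 17888 and WT 1 and WT 3 up to 17754), 39612 for the glutathione and antioxidant genes (35160, 35485 and 35372) and 26743 for the hypoxia genes (25150, 25411 and 23886.5). The sums of the zinc, the copper and iron and the gp130 and STAT3 genes were not highest on WT 2. They were 9854, 26416 and 5304 there, beside 10624.5 on WT 3, 28698 on HZ 3 and 6440 on WT 1. The astrocyte sum was 38780 on WT 2, below 41927 on WT 3. The part of any of these lists in the Mt1 and Mt2 values of WT 2 was not tested. WT 2 was the highest array for 15.4% of all tested probe sets, the largest share of any array, followed closely by KO 1 at 14.8%. Summed markers of neurons (14 of 16 tested) ranged from 24295 to 35932 in KO, 29444 to 33625 in HZ and 30458 to 34530 in WT. In KO against WT 7 neuron markers were higher and 7 lower. At an unadjusted p below 0.05 (limma) 3 were higher and 1 lower, together 28.6% beside 8.03% of all tested probe sets. Summed markers of endothelial and mural cells (14 of 20) ranged from 5456 to 6657, 6574 to 7415 and 6219 to 6571 in KO, in HZ and in WT, and those of choroid plexus, meninges and ependyma (6 of 11) from 1046 to 1450, 1152 to 1252 and 1101 to 1253. Of the 14 endothelial and mural markers 3 were higher and 11 lower in KO against WT, and 10 higher and 4 lower in HZ against WT. In HZ against WT 5 of the 14 were apart and higher, beside 8.51% of all tested probe sets. At an unadjusted p below 0.05 (limma) there were 0 of the 14 in either comparison. Of the erythroid markers 0 of 7 were bright enough to be tested. The leading members were Rorb, the layer IV transcription factor, at -0.66 in KO against WT (limma adjusted p = 0.435), Ctss, a microglial protease, at -0.88 (0.460), Cnp, of oligodendrocytes, at -0.84 (0.575) with a second probe set at -0.15 (0.891), Vtn at -0.35 (0.712) and Folr1 at 0.31 (0.752). In HZ against WT they were Map2 at 0.45, Flt1 at 0.50, Olig2 at 0.48, Folr1 at 0.46 and Ctss at -0.47, and none passed (limma adjusted p between 0.789 and 0.798).

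The genes beside the metallothionein cluster on chromosome 8 did not pass either. Of the nearest protein-coding genes on both sides, 3 were tested. Nudt21, an RNA cleavage factor on the Mt4 side, had log2 changes of -0.03 for KO against WT and -0.05 for HZ against WT (limma adjusted p = 0.966 and 0.954). Nup93, a nuclear pore protein and the next gene after Mt1, had changes of 0.12 and -0.01 (0.884 and 0.993), and Herpud1, of the endoplasmic reticulum stress response, 0.09 and 0.26 (0.906 and 0.790). Bbs2 and Slc12a3 had a probe set each that was too dim, and Ogfod1 and Nlrc5 had no probe set with their symbol alone.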

How the data were processed

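The values the authors deposited are linear intensity values, 1 per probe set. Per the submitters' processing notes they were made with MAS5 and Expression Console. RNA went through 2 cycles of amplification before labelling, per the labels' protocols. The trimmed mean, leaving out 2% at each end, was 500.2 on each array, so the arrays had been scaled to 1 level.

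Titles gave each array's genotype. Deposited signals were taken as log2(signal + 16). Without the 64 controls, the brightest 60% by mean log2 value (13576, lowest mean signal 118) entered the fit. limma 3.58.1 in R 4.3.3 was fitted to all 9 arrays with genotype as the only term and an intensity trend (6 residual and 6.94 prior degrees of freedom). P-values are 2-sided and adjusted by Benjamini-Hochberg over all kept probe sets at 0.05. Dim members were read from the same fit on 22626 probe sets. Correlations used exact permutation of pairings in Python 3.11.15. Probe sets were named by platform annotation, and of 20393 with 1 symbol 20364 matched RefSeq (GRCm38.p6). Promoter sequences are from RefSeq. On 5 simulated data sets of 13576 probe sets for KO against WT, 63.4% of 2-fold and 96% of 4-fold changes were recovered, with 4.20% false calls. The simulated noise was independent and had each probe set's own SD, with a median of 0.23. These shares therefore do not hold for Mt1 and Mt2, whose SDs were 0.55 and 0.52.

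The members and lists were chosen with earlier results of these data known. A gene was represented by its brightest kept probe set. The genes named were by rule the metallothioneins, Gap43, Mtf1, Slc30a1, Slc30a3 and Nr3c1, the genes of smallest p in each list (in each pathway list 2 for KO against WT and 1 for each other comparison, in each cell type list 1 for KO against WT and 1 for HZ against WT), the genes most and least like each member over the arrays, and the nearest 4 protein-coding genes on each side of the cluster. Not every neighbour is reported here. The alternatives tried were other pseudocounts, brightness limits, normalizations, terms and weights, the genotypes of a comparison alone and the removal of each array.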

Additional observations from a re-analysis of the deposited data

How the results depend on the processing

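Mt2 kept its direction and stayed short of the threshold under all 11 alternative settings and without each of the 9 arrays, in each comparison (log2 changes over the removals of -0.74 to -0.05 for KO against WT, -1.10 to -0.41 for HZ against WT and 0.17 to 0.65 for KO against HZ). Mt1 also never passed, but its sign turned for KO against WT with quantile normalization (-0.0083), with arrays set to 1 median (-0.048) or with the control probe sets' log2 3′/5′ ratio fitted, here called a 3′/5′ term (-0.064), and for HZ against WT with 1 median (-0.00065) or that term (-0.042). Leaving out single arrays gave Mt1 changes of -0.29 to 0.42, -0.21 to 0.49 and -0.36 to 0.11 in the 3 comparisons. Mt3 moved by less than its SD within genotypes throughout, over -0.33 to 0.89, -0.00075 to 0.92 and -0.66 to 0.43 when single arrays were left out. The correlation of Mt1 and Mt2 passed with genotype means removed (r = 0.81) but not when its 2 farthest arrays were then left out (0.56), and that of Mt2 and Mt3 turned to 0.041 without its 2 farthest arrays.

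The counts of all probe sets past the threshold, 1, 0 and 1 for KO against WT, HZ against WT and KO against HZ, ranged over 0 to 2 in each when single arrays were left out. For KO against WT the count was 0 without the brightness limit, without the trend or with only those 2 genotypes, and 5 with array weights. For HZ against WT it was 3 with array weights. For KO against HZ it was 0 without the brightness limit, with quantile normalization, with 1 median, without the trend or with only those 2 genotypes, 3 with a 3′/5′ term and 2 with the replicate block. Deviations of same-numbered arrays correlated at -0.26 to 0.11, and 0, 5 and 2 of 6 arrays in the 3 comparisons were closest to their own number. In HZ against WT these correlations were 0.03, 0.05 and 0.06. Whether the replicate numbers pair the mice was therefore not settled. The cause of the moves in the counts was not tested. Dim signal limits Mt3 and the dim Mt1 probe set.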
